A study of Caenorhabditis elegans with 15 samples.

Results

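The cell cycle and DNA replication genes of Caenorhabditis elegans were read on 15 whole-worm arrays. They are a fixed list of 48 genes, chosen by name with earlier results of these data known. Counts set beside all probe sets therefore describe the list and do not test it independently. The array holds a probe set annotated to exactly 1 gene symbol for 17118 genes. All 48 were found. Where several probe sets named a gene, the one of highest mean over the 15 arrays was taken. Values are log2 signals as normalised by the study, so a difference of 1 is a 2-fold difference, and they compare arrays for a given gene, not genes with each other. Worms were moved as L4 larvae, the last larval stage, to plates holding 2% DMSO alone or with a drug, and were collected 72 hours later as adults. The 5 groups held 3 arrays each. N2 (wild-type) worms were kept as controls or given rapamycin or allantoin, eat-2 worms were kept as controls or given rapamycin, and every group, controls included, received DMSO. The eat-2 strain, DA465, lacks normal function of a nicotinic receptor subunit of the pharynx, eats slowly and is used as a model of caloric restriction. Rapamycin inhibits the TOR kinase, which couples nutrients to growth. Allantoin is a product of purine breakdown. No eat-2 worms on allantoin were among the samples. The sources used here do not say whether the array plates held FUDR, a drug that blocks DNA synthesis and offspring, or whether the 3 arrays of a group came from separate cultures, so the p-values below measure only the spread between these arrays, which may be technical.

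Replication starts when the origin recognition complex and CDC-6 and CDT-1 load the ring of 6 MCM proteins onto DNA, which is called licensing. Cyclin-dependent kinases (CDKs), switched on by cyclins and CDC25 phosphatases and held back by inhibitors, then start DNA synthesis and later mitosis. Retinoblastoma-type repression of E2F holds S phase genes off until the cell is committed. Polo and Aurora kinases, the kinetochore and the spindle checkpoint carry the chromosomes through division. In an adult hermaphrodite the cells of the body no longer divide, so that these genes are used mainly by the germline, and their transcripts are also stored in oocytes for the embryo. In whole worms, fewer cells of a type and less RNA per cell cannot be told apart.

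Several arrays did not sit with their own group. Over all probe sets, the array most correlated with N2 control 1 was N2 allantoin 3 (r = 0.997), that of N2 control 2 was N2 rapamycin 1 (r = 0.984), that of N2 control 3 was eat-2 control 2 (r = 0.989), and that of N2 allantoin 3 was N2 control 1 (r = 0.997). The other 11 arrays were closest to an array of their own group. For the cell cycle genes, the median SD within a group was 0.39 in N2 controls and 0.082 to 0.13 in the other groups. N2 control 2 was the lowest N2 control array for 45 of the 48 genes. Each comparison with N2 controls is therefore followed by what single arrays left out did to it.

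The cell cycle genes were lowest in rapamycin-treated N2 worms. The group mean was lowest there for 46 of 48 genes, and for 37 genes all 3 N2 rapamycin arrays lay below all 12 other arrays, against 17.2% of all probe sets. Without N2 control 2, a choice made after seeing the data, 41 genes lay below all 11 other arrays, against 22.5% of all probe sets. Only cki-1, a CDK inhibitor gene, and cdc-25.4, a CDC25 phosphatase gene, lay above all 12 other arrays, against 14.5% of all probe sets. Taking each gene as a deviation from its own mean over 15 arrays, the median of the 48 was between -0.64 and -0.63 on the N2 rapamycin arrays, 0.27, -0.39 and 0.1 on the 3 N2 control arrays, 0.34 to 0.43 on N2 allantoin, -0.01 to 0.18 on eat-2 control and 0.19 to 0.23 on eat-2 rapamycin. The N2 rapamycin arrays did not overlap with any other group on this measure, and N2 control 2 was the nearest array to them.

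**Figure D1:**
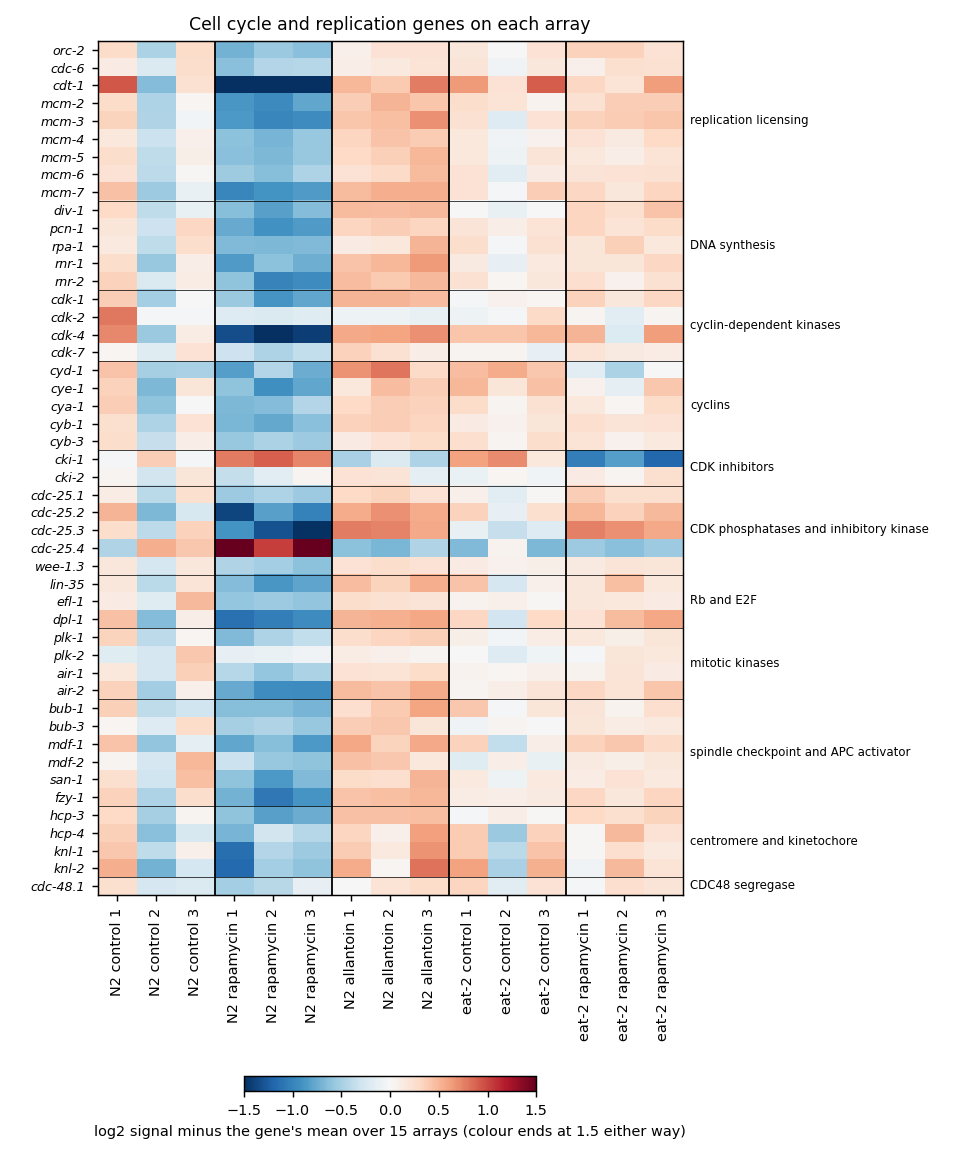
Log2 signal of the 48 cell cycle and replication genes (rows, by role) on each of 15 arrays (columns, by group), as the difference from the gene's mean over all arrays, with blue for lower and red for higher. The 3 N2 rapamycin columns are blue for 46 genes by group mean and red for cki-1 and cdc-25.4, and N2 control 2 is the bluest column outside them.

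Comparing rapamycin-treated N2 worms with N2 controls asks what the drug did in wild-type worms. Of the 48 genes, 46 had a lower mean on rapamycin (44 under cyclic loess scaling, where cki-2 and plk-2 turned positive), with a median log2 difference of -0.64, where the median of all probe sets was -0.02. All 9 licensing genes, all 5 DNA synthesis genes, all 3 retinoblastoma and E2F genes, all 6 checkpoint genes and all 5 cyclins were lower in mean, and cki-1 and cdc-25.4 were higher. Under limma with Benjamini-Hochberg adjustment over all 22548 probe sets, 6 genes fell (3.67% of all probe sets did): cdt-1, mcm-3, pcn-1, rnr-2, cdk-4 and cdc-25.3. The only gene that rose was cki-1 (5.71% of all probe sets rose). At the study's threshold, an unadjusted p under 0.05 with over 2-fold change, cdt-1, cdk-4 and cdc-25.3 were lower (3.26% of all probe sets) and cdc-25.4 was higher (5.15%). An unadjusted p under 0.05 was reached by 40 of the 48, beside 32.7% of all probe sets. The 3 arrays of one group did not overlap with those of the other for 39 genes, 37 of them lower on rapamycin and 2 higher, against 39.9% of all probe sets in either direction.

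The number of calls in this comparison turned on single arrays. Without N2 control 2, 38 genes fell and 2 rose, and 30.6% of all probe sets were called in either direction, 15.6% lower. Without N2 control 1, only cdt-1, mcm-3 and cdk-4 were called, all lower (2.75% of all probe sets). Without N2 control 3 or any of the 3 rapamycin arrays, none was called, and of all probe sets 0% to 1.44% were called in these fits. The median difference of the cell cycle genes stayed between -0.87 and -0.52 over the 6 arrays left out in turn.

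Comparing allantoin-treated N2 worms with N2 controls, 45 of 48 genes had a higher mean on allantoin, with a median difference of 0.37, where the median of all probe sets was 0.05. No gene passed adjustment, as for all probe sets (0% called), and none passed the study's threshold (4.05% of all probe sets in either direction), while 13 reached an unadjusted p under 0.05, beside 19.8% of all probe sets. When all 15 arrays were fitted together, 6 genes passed adjustment as higher (4.82% of all probe sets). The arrays did not overlap for 22 genes, 19 higher and 3 lower on allantoin, against 28.8% of all probe sets. Without N2 control 1, the array closest to allantoin, 13 genes passed adjustment as higher (9.33% of all probe sets) and cdc-25.4 as lower, where 20.4% of all probe sets were called in either direction. Without N2 control 2 none was called, 38 of 48 genes had a higher mean in place of 45, and the median difference was 0.16. With each of the other 5 arrays left out it was between 0.34 and 0.52. Under cyclic loess scaling the means of cdc-6, cki-2, efl-1 and plk-2 turned negative (-0.03 to -0.01).

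Set directly against each other, the drugs differed in nearly all of these genes. In rapamycin-treated N2 worms 43 of 48 genes were lower than in allantoin-treated N2 worms after adjustment (33.5% of all probe sets) and cki-1 and cdc-25.4 were higher (27.8%). At the study's threshold 27 were lower (8.53%) and the same 2 were higher (11.9%). The median difference was -1.05, against -0.07 over all probe sets. The arrays did not overlap for 47 genes, all but cki-2 (68.2% of all probe sets). The genes not called were cdk-2, cki-2 and plk-2, and the last 2 changed sign under cyclic loess scaling (0.05 and 0.06). With each array centred on its median, 46 genes were lower and 2 higher, while 53.3% of all probe sets were lower and 21.9% higher. Leaving out single arrays left 45 or 46 genes called, beside 54.4% to 60% of all probe sets.

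**Figure D2:**
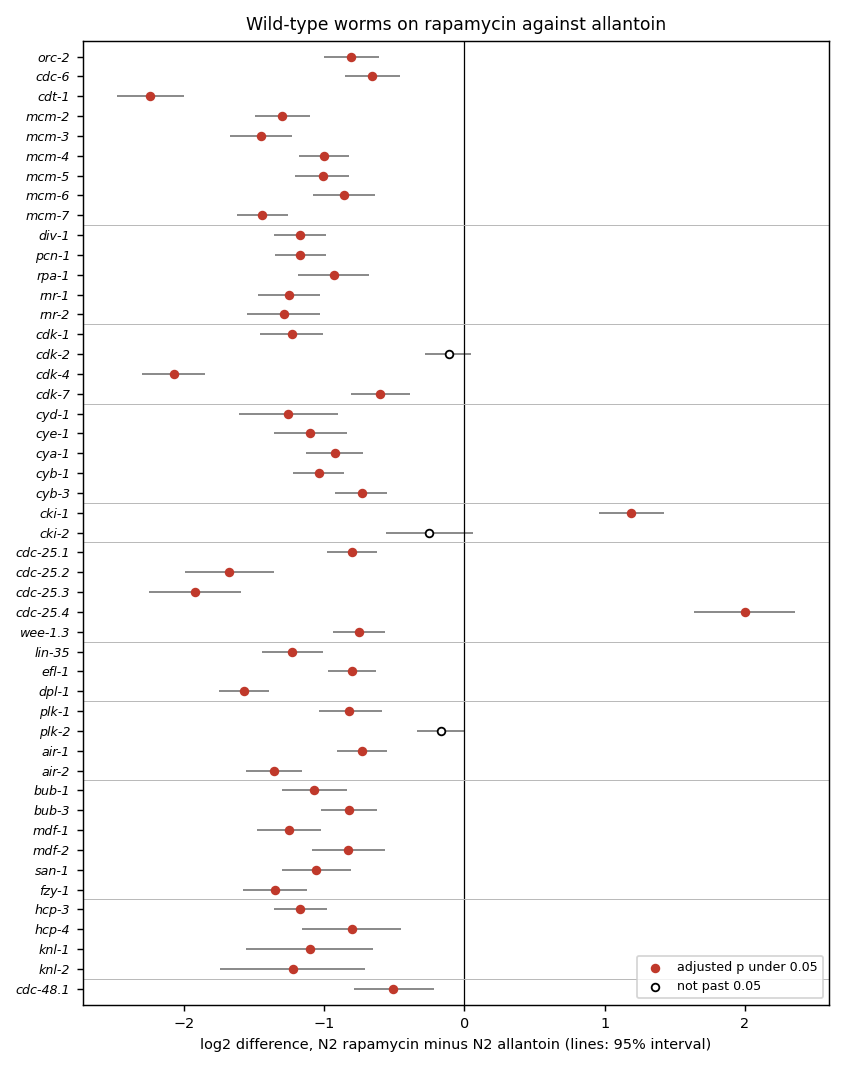
Difference in log2 signal between rapamycin-treated and allantoin-treated N2 worms for each of the 48 genes (points; lines are 95% intervals, 3 arrays against 3), filled where the limma adjusted p was under 0.05. Points run from -2.24 for cdt-1 to 2 for cdc-25.4, and cdk-2, cki-2 and plk-2 are open.

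Without drug, eat-2 worms and N2 worms were not told apart by these genes. No gene passed adjustment (0.0399% of all probe sets did) or the study's threshold (1.52%), 1 gene, cyd-1, reached an unadjusted p under 0.05 (7.59% of all probe sets did), and the arrays overlapped for all 48 (14.4% of all probe sets did not overlap). The median difference was 0.11, and it was -0.1 when N2 control 2 was left out and between 0.06 and 0.24 for the other 5 arrays, so its sign rested on that array. Without N2 control 1, cyd-1 alone passed adjustment, as higher in eat-2 (1.73% of all probe sets). The 95% intervals were wide: that of cdt-1 ran from -0.59 to 1.43 and that of pcn-1 from -0.32 to 0.54. Over all probe sets, 8 were higher and 1 lower in eat-2, and under cyclic loess scaling 0.00443% were called in each direction.

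On rapamycin, eat-2 worms did not show the low values of N2 worms. Against eat-2 controls, 37 of 48 genes had a higher mean on rapamycin (35 under cyclic loess scaling and 41 with each array centred on its median), with a median difference of 0.1 (0.03 over all probe sets). After adjustment cdc-25.3 and div-1 rose (6.8% of all probe sets), and cki-1 and cyd-1 fell (7.03%). Only cki-1 passed the study's threshold (3.06% in either direction), and 8 genes reached an unadjusted p under 0.05, a smaller share than that of all probe sets (29.9%). The arrays did not overlap for 18 genes, 16 higher and 2 lower, a share near that of all probe sets (36.7%). With each array centred on its median, 5 genes rose and 2 fell, beside 11.6% and 5.74% of all probe sets. The calls of cdc-25.3 and cki-1 held with each array left out in turn, that of cyd-1 was lost without eat-2 control 1, eat-2 control 3 or eat-2 rapamycin 1, and that of div-1 was kept only when the array left out was eat-2 rapamycin 2.

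Between the strains on rapamycin, 43 of 48 genes were higher in eat-2 than in N2 worms (32.1% of all probe sets) and cki-1 and cdc-25.4 were lower (25.8%), with a median difference of 0.86 (0.1 over all probe sets). At the study's threshold 17 were higher (7.55%) and the same 2 lower (11.2%). The arrays did not overlap for 46 genes, all but cyd-1 and cki-2 (66.8% of all probe sets). This comparison shares its N2 rapamycin arrays with the comparison against allantoin. With each array centred on its median, 46 genes were higher and 2 lower, beside 56.5% and 19.6% of all probe sets.

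Whether the difference on rapamycin was itself different in eat-2 and N2 worms was tested in a fit of 12 arrays. The fit pooled the spread over its groups, which was largest in N2 controls. A positive value means that the difference on rapamycin was higher in eat-2. The test called 32 genes as positive (12.1% of all probe sets) and cki-1 and cdc-25.4 as negative (12.4%), and with over 2-fold change at the study's threshold 8 positive (5.25%) and 2 negative (8.41%). The median was 0.77 (0.04 over all probe sets). All 9 licensing genes, all 5 DNA synthesis genes and all 3 retinoblastoma and E2F genes were among the positive calls, as were 1 of 5 cyclins and 1 of 4 kinetochore genes. With each array centred on its median, 35 were positive and 2 negative, beside 21.6% and 9.28% of all probe sets. Leaving out single arrays left between 17 (without eat-2 rapamycin 1 or eat-2 rapamycin 3) and 39 calls (without N2 control 2), beside 6.86% to 19% of all probe sets positive and 7.63% to 18.7% negative.

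**Figure D3:**
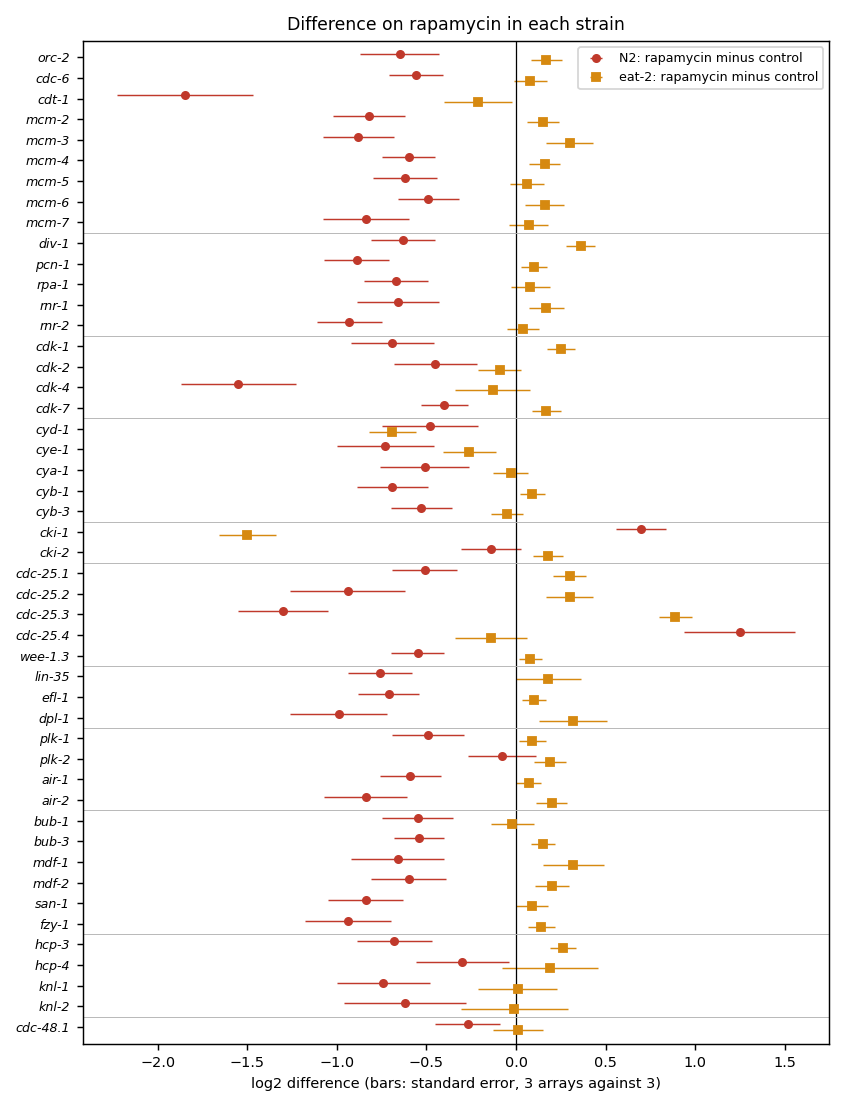
Difference in log2 signal between rapamycin and control worms for each of the 48 genes, in N2 (circles) and in eat-2 (squares), with standard errors (3 arrays against 3). In N2, 46 circles lie below 0, and in eat-2, 37 squares lie above it. Among the genes that differ in sign, cdc-25.3 (-1.3 and 0.89) and cki-1 (0.7 and -1.5) passed adjustment in both strains.

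Among the licensing genes, cdt-1, whose product brings the MCM ring to origins, differed most. The signal of cdt-1 was 9.05, 7.46 and 8.34 on the N2 control arrays, 6.37, 6.46 and 6.46 on N2 rapamycin, 8.61, 8.51 and 8.88 on N2 allantoin, 8.75, 8.33 and 9.02 on eat-2 control and 8.42, 8.32 and 8.74 on eat-2 rapamycin. The 3 N2 rapamycin arrays lay within 0.09 of each other, and the highest of them lay 1 unit below the lowest of the other 12. The difference from N2 controls was -1.85 (SE 0.38, adjusted p = 0.0396), 3.61-fold lower, and from allantoin-treated worms -2.24 (SE 0.11, adjusted p = 7.69e-07). In eat-2 worms rapamycin gave -0.21 (SE 0.19, adjusted p = 0.522), and the difference between strains was 1.65 (SE 0.46, adjusted p = 0.0275). Of the MCM helicase genes, mcm-3 read 11.32, 10.54 and 10.95 on the N2 control arrays, 10.12, 10.01 and 10.04 on N2 rapamycin, 11.4, 11.44 and 11.67 on N2 allantoin, 11.22, 10.79 and 11.2 on eat-2 control and 11.33, 11.37 and 11.4 on eat-2 rapamycin. It fell by 0.88 in N2 on rapamycin (SE 0.2, adjusted p = 0.0478) and the strain difference was 1.18 (SE 0.25, adjusted p = 0.00981). The gene mcm-2 gave 10.28, 9.54 and 10.03 on the N2 control arrays, 9.13, 9.05 and 9.23 on N2 rapamycin, 10.38, 10.51 and 10.42 on N2 allantoin, 10.27, 10.21 and 10.06 on eat-2 control and 10.23, 10.38 and 10.37 on eat-2 rapamycin. For mcm-7 the values were 13.3, 12.31 and 12.75 on the N2 control arrays, 11.88, 11.96 and 12.01 on N2 rapamycin, 13.34, 13.41 and 13.41 on N2 allantoin, 13.08, 12.84 and 13.23 on eat-2 control and 13.17, 13.03 and 13.18 on eat-2 rapamycin. Both were lowest on all 3 N2 rapamycin arrays, with differences from N2 controls of -0.82 (SE 0.2, adjusted p = 0.0519) and -0.84 (SE 0.24, adjusted p = 0.0736) that did not pass adjustment.

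The helicase genes mcm-4 and mcm-5 differed by less. The values of mcm-4 were 11.42, 10.94 and 11.34 on the N2 control arrays, 10.65, 10.57 and 10.69 on N2 rapamycin, 11.59, 11.69 and 11.64 on N2 allantoin, 11.42, 11.21 and 11.33 on eat-2 control and 11.48, 11.4 and 11.56 on eat-2 rapamycin, and the N2 rapamycin arrays were -1 (SE 0.078, adjusted p = 8.7e-06) from allantoin. Those of mcm-5 were 11.93, 11.29 and 11.76 on the N2 control arrays, 11.04, 10.99 and 11.0977 on N2 rapamycin, 11.97, 12.02 and 12.17 on N2 allantoin, 11.83, 11.59 and 11.86 on eat-2 control and 11.82, 11.77 and 11.87 on eat-2 rapamycin, with -1.01 (SE 0.086, adjusted p = 1.36e-05) for the same comparison. In both, N2 rapamycin and N2 allantoin did not overlap, and all 3 N2 controls lay between them. The remaining licensing genes, orc-2 of the origin recognition complex, the loader cdc-6 and mcm-6, differed from N2 controls by -0.65 to -0.49 on rapamycin, none called, and all 3 were called lower than on allantoin and positive in the test between strains.

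All 5 DNA synthesis genes were lowest on the N2 rapamycin arrays. The gene pcn-1 encodes the sliding clamp that holds polymerases on DNA, and it read 12.84, 12.34 and 12.97 on the N2 control arrays, 11.9, 11.75 and 11.81 on N2 rapamycin, 12.98, 13.03 and 12.98 on N2 allantoin, 12.85, 12.76 and 12.86 on eat-2 control and 12.98, 12.86 and 12.93 on eat-2 rapamycin. It fell by 0.89 in N2 on rapamycin (SE 0.18, adjusted p = 0.038), and in eat-2 worms the difference was 0.1 (SE 0.072, adjusted p = 0.418), with a strain difference of 0.99 (SE 0.2, adjusted p = 0.00759). Ribonucleotide reductase makes the building blocks of DNA. Its small subunit gene rnr-2 read 13.5, 12.94 and 13.26 on the N2 control arrays, 12.55, 12.15 and 12.21 on N2 rapamycin, 13.61, 13.54 and 13.64 on N2 allantoin, 13.38, 13.18 and 13.32 on eat-2 control and 13.4, 13.21 and 13.38 on eat-2 rapamycin, and it fell by 0.93 in N2 on rapamycin (SE 0.18, adjusted p = 0.038). Its large subunit gene rnr-1 read 11.91, 11.08 and 11.75 on the N2 control arrays, 10.8, 11.03 and 10.91 on N2 rapamycin, 12.07, 12.14 and 12.28 on N2 allantoin, 11.78, 11.52 and 11.79 on eat-2 control and 11.83, 11.83 and 11.96 on eat-2 rapamycin. The margin of rnr-1 between N2 control 2 and the highest N2 rapamycin array was 0.05, and the difference from N2 controls was -0.66 (SE 0.23, adjusted p = 0.103).

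The single-strand DNA binding gene rpa-1 gave 11.19, 10.67 and 11.31 on the N2 control arrays, 10.39, 10.37 and 10.39 on N2 rapamycin, 11.17, 11.21 and 11.56 on N2 allantoin, 11.31, 11.02 and 11.27 on eat-2 control and 11.23, 11.4 and 11.21 on eat-2 rapamycin. Its N2 rapamycin arrays agreed within 0.02. The gene div-1, for the B subunit of DNA polymerase alpha-primase, gave 9.53, 8.85 and 9.13 on the N2 control arrays, 8.6, 8.42 and 8.58 on N2 rapamycin, 9.71, 9.7 and 9.72 on N2 allantoin, 9.24, 9.13 and 9.23 on eat-2 control and 9.56, 9.48 and 9.66 on eat-2 rapamycin. It was lowest on N2 rapamycin and differed the other way in eat-2, where all 3 rapamycin arrays lay above all 3 controls and it rose by 0.36 (SE 0.079, adjusted p = 0.0284). The strain difference was 1 (SE 0.21, adjusted p = 0.00896) for div-1 and 0.75 (SE 0.22, adjusted p = 0.0301) for rpa-1.

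**Figure D4:**
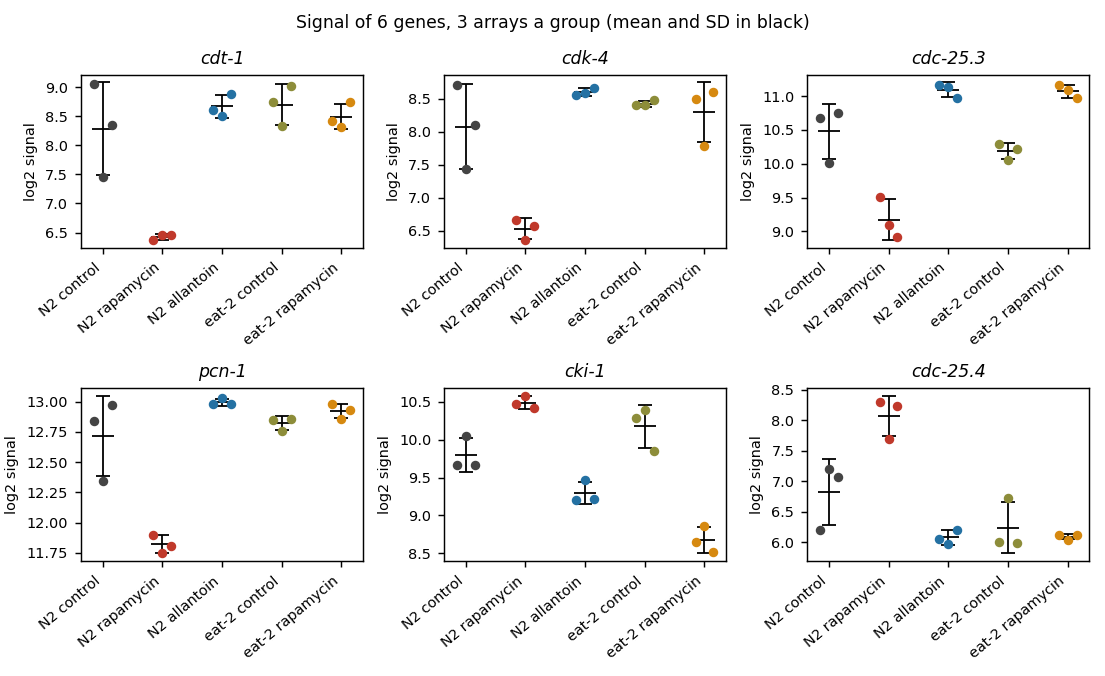
Log2 signal of cdt-1, cdk-4, cdc-25.3, pcn-1, cki-1 and cdc-25.4 on each array (points), with the mean and SD of 3 arrays in black, by group; axes do not start at 0. The N2 rapamycin points lie apart from all others, below them in the panels of cdt-1, cdk-4, cdc-25.3 and pcn-1 and above them in those of cki-1 and cdc-25.4. For cki-1 the gap to the nearest other point, an eat-2 control, is only 0.03.

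Among the CDKs, the G1 kinase gene cdk-4 changed most. Its signal was 8.71, 7.43 and 8.1 on the N2 control arrays, 6.66, 6.36 and 6.58 on N2 rapamycin, 8.55, 8.58 and 8.67 on N2 allantoin, 8.4, 8.4 and 8.48 on eat-2 control and 8.5, 7.78 and 8.61 on eat-2 rapamycin. The N2 rapamycin arrays lay below all others, and the eat-2 rapamycin arrays spread from 7.78 to 8.61 around the eat-2 controls. The difference on rapamycin was -1.55 (SE 0.32, adjusted p = 0.04) in N2 and -0.13 (SE 0.21, adjusted p = 0.726) in eat-2, with a strain difference of 1.42 (SE 0.41, adjusted p = 0.0316). The mitotic kinase gene cdk-1 read 12.51, 11.64 and 12.14 on the N2 control arrays, 11.59, 11.26 and 11.37 on N2 rapamycin, 12.66, 12.65 and 12.61 on N2 allantoin, 12.11, 12.21 and 12.17 on eat-2 control and 12.49, 12.31 and 12.45 on eat-2 rapamycin, and its lowest N2 control and highest N2 rapamycin arrays were 0.05 apart. Its difference from allantoin was -1.23 (SE 0.098, adjusted p = 9.93e-06). The S phase kinase gene cdk-2 stayed close to the dimmest 25% of all probe sets, whose upper bound was 5.14, and read 6.18, 5.38 and 5.37 on the N2 control arrays, 5.2, 5.17 and 5.21 on N2 rapamycin, 5.32, 5.31 and 5.28 on N2 allantoin, 5.31, 5.38 and 5.68 on eat-2 control and 5.43, 5.23 and 5.43 on eat-2 rapamycin. Apart from N2 control 1, its arrays lay between 5.17 and 5.68, and no comparison was called. The gene cdk-7, for the kinase that activates CDKs and acts in transcription, was called lower on rapamycin than on allantoin (-0.6 (SE 0.092, adjusted p = 0.000462)), and its difference from N2 controls was -0.4 (SE 0.13, adjusted p = 0.0896).

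The G1 cyclin gene cyd-1, the partner of cdk-4, read 7.67, 6.74 and 6.76 on the N2 control arrays, 6.42, 6.8 and 6.5 on N2 rapamycin, 7.92, 8.05 and 7.53 on N2 allantoin, 7.71, 7.8 and 7.65 on eat-2 control and 7.07, 6.77 and 7.24 on eat-2 rapamycin. Its N2 controls spread over 0.93 and overlapped with N2 rapamycin, and it was the cyclin that fell on rapamycin in eat-2 (-0.69 (SE 0.13, adjusted p = 0.0175)). The interval of its strain difference ran from -0.93 to 0.5, so that no difference between strains was shown. The G1/S cyclin gene cye-1 read 7.2, 6.18 and 7.03 on the N2 control arrays, 6.24, 5.93 and 6.07 on N2 rapamycin, 7.01, 7.31 and 7.22 on N2 allantoin, 7.35, 7.03 and 7.29 on eat-2 control and 6.91, 6.72 and 7.25 on eat-2 rapamycin. Its difference between rapamycin and allantoin was -1.1 (SE 0.11, adjusted p = 4.3e-05), and its eat-2 difference of -0.26 (SE 0.15, adjusted p = 0.307) was not called. The mitotic cyclin gene cyb-1 read 12.38, 11.68 and 12.36 on the N2 control arrays, 11.46, 11.38 and 11.52 on N2 rapamycin, 12.49, 12.51 and 12.47 on N2 allantoin, 12.27, 12.21 and 12.32 on eat-2 control and 12.39, 12.33 and 12.36 on eat-2 rapamycin. The mitotic cyclin gene cyb-3 read 13.56, 12.95 and 13.4 on the N2 control arrays, 12.73, 12.82 and 12.76 on N2 rapamycin, 13.42, 13.52 and 13.58 on N2 allantoin, 13.55, 13.34 and 13.56 on eat-2 control and 13.5, 13.36 and 13.45 on eat-2 rapamycin. Both were lowest on the N2 rapamycin arrays and were not called on rapamycin in eat-2, at 0.09 (SE 0.069, adjusted p = 0.436) and -0.05 (SE 0.091, adjusted p = 0.772). Of the cyclins only cyb-1 was called in the test between strains (0.78 (SE 0.22, adjusted p = 0.0306)). The cyclin A gene cya-1 was called lower than on allantoin and in no comparison with controls.

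The CDK inhibitor gene cki-1, of the family that stops division in cells that leave the cycle, went against the rest. It read 9.66, 10.05 and 9.67 on the N2 control arrays, 10.47, 10.58 and 10.42 on N2 rapamycin, 9.2, 9.47 and 9.22 on N2 allantoin, 10.29, 10.39 and 9.85 on eat-2 control and 8.65, 8.86 and 8.51 on eat-2 rapamycin. The N2 rapamycin arrays were the highest of all and the eat-2 rapamycin arrays the lowest, with no overlap with their own controls in either strain. The lowest N2 rapamycin array lay only 0.03 above the highest other array, eat-2 control 2. It rose by 0.7 in N2 (SE 0.14, adjusted p = 0.0378) and fell by 1.5 in eat-2 (SE 0.16, adjusted p = 0.00437), and the strain difference of -2.2 (SE 0.22, adjusted p = 0.000602) was the lowest of the 48. Its family member cki-2, the next gene on the chromosome in the RefSeq annotation of WBcel235, read 9.53, 9.21 and 9.67 on the N2 control arrays, 9.13, 9.31 and 9.53 on N2 rapamycin, 9.7, 9.68 and 9.34 on N2 allantoin, 9.38, 9.51 and 9.43 on eat-2 control and 9.61, 9.52 and 9.72 on eat-2 rapamycin. Its N2 rapamycin arrays overlapped with those of N2 control and N2 allantoin, and none of its 7 comparisons was called.

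The CDC25 phosphatase genes, which switch CDKs on, differed in both directions. The gene cdc-25.3 read 10.67, 10.01 and 10.75 on the N2 control arrays, 9.51, 9.09 and 8.92 on N2 rapamycin, 11.17, 11.14 and 10.97 on N2 allantoin, 10.29, 10.06 and 10.21 on eat-2 control and 11.16, 11.09 and 10.97 on eat-2 rapamycin. It fell by 1.3 in N2 on rapamycin (SE 0.25, adjusted p = 0.0355) and rose by 0.89 in eat-2 (SE 0.093, adjusted p = 0.00397), with a strain difference of 2.19 (SE 0.28, adjusted p = 0.00162). The arrays of rapamycin-treated eat-2 worms lay among those of allantoin-treated N2 worms. The gene cdc-25.4 read 6.21, 7.21 and 7.07 on the N2 control arrays, 8.3, 7.7 and 8.23 on N2 rapamycin, 6.05, 5.98 and 6.21 on N2 allantoin, 6, 6.72 and 5.99 on eat-2 control and 6.12, 6.04 and 6.12 on eat-2 rapamycin. All 3 N2 rapamycin arrays lay above every other array, N2 controls spread over 1 unit, and the eat-2 rapamycin arrays lay within 0.08 of each other. Its difference from N2 controls was 1.25 (SE 0.31, adjusted p = 0.0539), past the study's threshold but not past adjustment, and 2 (SE 0.16, adjusted p = 9.33e-06) from allantoin. The gene cdc-25.2 read 9.9, 8.71 and 9.15 on the N2 control arrays, 8.01, 8.57 and 8.37 on N2 rapamycin, 9.95, 10.08 and 9.95 on N2 allantoin, 9.74, 9.26 and 9.63 on eat-2 control and 9.89, 9.74 and 9.88 on eat-2 rapamycin. It was -1.68 (SE 0.14, adjusted p = 1.2e-05) from allantoin and -0.94 (SE 0.32, adjusted p = 0.103) from N2 controls on rapamycin. The germline phosphatase gene cdc-25.1 and wee-1.3, for the kinase that opposes CDC25, differed by -0.51 and -0.55 from N2 controls, not called, and both were called lower than on allantoin.

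The 3 genes of the retinoblastoma and E2F pathway, which holds S phase genes off until the cell is committed, were all lower in mean on rapamycin in N2 worms. The retinoblastoma gene lin-35 read 9.9, 9.33 and 9.93 on the N2 control arrays, 9.08, 8.86 and 8.94 on N2 rapamycin, 10.2, 10.07 and 10.28 on N2 allantoin, 10.16, 9.48 and 9.81 on eat-2 control and 9.9, 10.19 and 9.89 on eat-2 rapamycin. The E2F gene efl-1 read 10.13, 9.83 and 10.49 on the N2 control arrays, 9.43, 9.46 and 9.42 on N2 rapamycin, 10.27, 10.24 and 10.2 on N2 allantoin, 10.06, 10.08 and 10.03 on eat-2 control and 10.18, 10.16 and 10.13 on eat-2 rapamycin. The gene of its DP partner, dpl-1, read 9.55, 8.45 and 9.2 on the N2 control arrays, 7.99, 8.07 and 8.16 on N2 rapamycin, 9.61, 9.64 and 9.68 on N2 allantoin, 9.42, 8.82 and 9.4 on eat-2 control and 9.32, 9.58 and 9.69 on eat-2 rapamycin. In each, the 3 N2 rapamycin arrays were the lowest of 15. None passed adjustment against N2 controls, where dpl-1 was -0.99 (SE 0.27, adjusted p = 0.067), though a further probe set of lin-35 did (-0.68, adjusted p = 0.0325). All 3 were called against allantoin, with -1.57 (SE 0.081, adjusted p = 1.04e-06) for dpl-1, and between strains, with 1.31 (SE 0.36, adjusted p = 0.0257), 0.94 (SE 0.28, adjusted p = 0.0335) and 0.82 (SE 0.19, adjusted p = 0.0136) for dpl-1, lin-35 and efl-1.

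Of the mitotic kinase genes, air-2 for Aurora B, which corrects chromosome attachment, read 11.14, 10.27 and 10.86 on the N2 control arrays, 10.03, 9.86 and 9.85 on N2 rapamycin, 11.26, 11.22 and 11.35 on N2 allantoin, 10.83, 10.89 and 10.98 on eat-2 control and 11.1005, 10.99 and 11.21 on eat-2 rapamycin. It was -1.36 (SE 0.087, adjusted p = 3e-06) from allantoin and 1.04 (SE 0.25, adjusted p = 0.0169) in the test between strains. The Aurora A gene air-1, needed for centrosome maturation, read 12.2, 11.79 and 12.4 on the N2 control arrays, 11.61, 11.46 and 11.56 on N2 rapamycin, 12.26, 12.24 and 12.32 on N2 allantoin, 12.09, 12.07 and 12.11 on eat-2 control and 12.09, 12.23 and 12.16 on eat-2 rapamycin. Both had their lowest values on N2 rapamycin. The polo kinase gene plk-1 read 12.41, 11.68 and 12.11 on the N2 control arrays, 11.41, 11.61 and 11.71 on N2 rapamycin, 12.34, 12.4 and 12.44 on N2 allantoin, 12.16, 12.04 and 12.19 on eat-2 control and 12.23, 12.17 and 12.26 on eat-2 rapamycin, and here an N2 rapamycin array, at 11.71, lay above the lowest N2 control, at 11.68. Its relative plk-2, known for its part in meiotic pairing, was not called in any comparison, and its difference from N2 controls on rapamycin was -0.08 (SE 0.19, adjusted p = 0.8), turning to 0.05 under cyclic loess scaling.

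The spindle checkpoint holds anaphase until chromosomes are attached, and FZY-1 is the activator of the anaphase-promoting complex that it holds back. The gene fzy-1 read 11.28, 10.47 and 11.2 on the N2 control arrays, 10.22, 9.86 and 10.05 on N2 rapamycin, 11.36, 11.39 and 11.43 on N2 allantoin, 11.05, 11.03 and 11.07 on eat-2 control and 11.24, 11.0975 and 11.25 on eat-2 rapamycin. It was -1.35 (SE 0.1, adjusted p = 7.45e-06) from allantoin and 1.08 (SE 0.26, adjusted p = 0.0158) between strains. The checkpoint gene san-1 read 11.25, 10.71 and 11.46 on the N2 control arrays, 10.4, 10.15 and 10.35 on N2 rapamycin, 11.28, 11.26 and 11.52 on N2 allantoin, 11.15, 10.93 and 11.15 on eat-2 control and 11.12, 11.22 and 11.15 on eat-2 rapamycin. The checkpoint gene mdf-1 read 8.75, 7.73 and 8.19 on the N2 control arrays, 7.54, 7.69 and 7.46 on N2 rapamycin, 8.9, 8.66 and 8.89 on N2 allantoin, 8.67, 7.96 and 8.42 on eat-2 control and 8.67, 8.73 and 8.61 on eat-2 rapamycin, and the kinase gene bub-1 read 10.59, 9.85 and 9.93 on the N2 control arrays, 9.59, 9.59 and 9.54 on N2 rapamycin, 10.48, 10.63 and 10.82 on N2 allantoin, 10.64, 10.21 and 10.41 on eat-2 control and 10.43, 10.29 and 10.49 on eat-2 rapamycin. In all 4 the N2 rapamycin arrays were the lowest of 15, with differences from N2 controls of -0.94 to -0.55 and no call. All 6 genes of this role, bub-3 and mdf-2 included, were called lower than on allantoin, and all but bub-1 and mdf-1 were called between strains.

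The centromere histone gene hcp-3 read 10.9, 10.1 and 10.64 on the N2 control arrays, 9.99, 9.78 and 9.85 on N2 rapamycin, 11.03, 11.03 and 11.05 on N2 allantoin, 10.58, 10.7 and 10.61 on eat-2 control and 10.9, 10.84 and 10.93 on eat-2 rapamycin, with the 3 N2 rapamycin arrays lowest. The kinetochore scaffold gene knl-1 read 11.36, 10.57 and 11.03 on the N2 control arrays, 9.82, 10.51 and 10.41 on N2 rapamycin, 11.33, 11.0965 and 11.63 on N2 allantoin, 11.34, 10.55 and 11.38 on eat-2 control and 10.97, 11.21 and 11.1019 on eat-2 rapamycin. The gene knl-2, needed to load the centromere histone, read 9.61, 8.36 and 8.8 on the N2 control arrays, 7.9, 8.55 and 8.46 on N2 rapamycin, 9.62, 9.09 and 9.88 on N2 allantoin, 9.67, 8.58 and 9.6 on eat-2 control and 9.01, 9.55 and 9.27 on eat-2 rapamycin. In both knl genes N2 rapamycin 1 and eat-2 control 2 lay below the others of their groups. The differences from N2 controls were -0.68 (SE 0.21, adjusted p = 0.0851) for hcp-3, -0.74 (SE 0.26, adjusted p = 0.115) for knl-1 and -0.62 (SE 0.34, adjusted p = 0.264) for knl-2, and between strains only hcp-3 was called (0.94 (SE 0.23, adjusted p = 0.0175)). The centromere gene hcp-4 was called lower than on allantoin (-0.8 (SE 0.16, adjusted p = 0.00183)) and not against N2 controls (-0.3 (SE 0.26, adjusted p = 0.476)). The segregase gene cdc-48.1, which pulls ubiquitinated proteins out of complexes and is used in most cells, read 10.58, 10.09 and 10.12 on the N2 control arrays, 9.83, 9.93 and 10.22 on N2 rapamycin, 10.34, 10.55 and 10.62 on N2 allantoin, 10.66, 10.18 and 10.56 on eat-2 control and 10.32, 10.59 and 10.53 on eat-2 rapamycin. Its difference of -0.27 (SE 0.18, adjusted p = 0.344) from N2 controls on rapamycin was smaller than all but those of cki-2 and plk-2, its arrays overlapped with the controls, and it was called lower than on allantoin (-0.51 (SE 0.12, adjusted p = 0.00649)).

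Other genes of DNA replication and cell division, 129 measured of 134 listed, were counted in the same way. In N2 worms on rapamycin 122 of 129 had a lower mean than controls, with a median of -0.5, and 13 fell and none rose (3.67% and 5.71% of all probe sets). The lowest p-values were those of gfi-3, for a subunit of the anaphase-promoting complex (-1.63 (SE 0.26, adjusted p = 0.0275)), rpa-2, for a partner of RPA-1 (-0.65 (SE 0.12, adjusted p = 0.0341)), and tyms-1, for thymidylate synthase (-1.31 (SE 0.24, adjusted p = 0.0342)). Against allantoin 112 were lower and none higher (33.5% and 27.8% of all probe sets), with a median of -0.79 and all 24 other replication genes among them, led by orc-1 of the origin recognition complex (-1.86 (SE 0.081, adjusted p = 5.14e-07)), gfi-3 (-2.11 (SE 0.094, adjusted p = 5.7e-07)) and the kinetochore gene mis-12 (-1.56 (SE 0.078, adjusted p = 9.21e-07)). No gene was called on allantoin against N2 controls (0% of all probe sets), where the median was 0.29 and 24 reached an unadjusted p under 0.05, a share near that of all probe sets (19.8%).

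In eat-2 worms 15 of these 129 rose and 3 fell on rapamycin (6.8% and 7.03% of all probe sets), with a median of 0.15. The kinetochore gene knl-3 rose by 0.45 (SE 0.075, adjusted p = 0.013), the centriole kinase gene zyg-1 rose by 0.52 (SE 0.094, adjusted p = 0.0166), and cls-2, for a microtubule-binding protein, fell by 0.61 (SE 0.11, adjusted p = 0.0166). Between strains on rapamycin 105 were higher and 3 lower in eat-2 (32.1% and 25.8%), and the test between strains called 62 positive and 1 negative (12.1% and 12.4%). The replication kinase gene cdc-7 had a strain difference of 1.15 (SE 0.22, adjusted p = 0.00682), the mitotic cyclin gene cyb-2.2 of 1.11 (SE 0.21, adjusted p = 0.00715) and the nuclease gene crn-1 of 1.16 (SE 0.23, adjusted p = 0.00759). Of eat-2 against N2 controls, none was called and 2 reached an unadjusted p under 0.05 (7.59% of all probe sets did).

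Markers of the tissues in a whole worm moved on the same arrays. Of 20 female germline and oocyte markers, 19 had a lower mean in rapamycin-treated N2 worms than in N2 controls and 6 were called (3.67% of all probe sets). The log2 of their summed signal was 15.77 to 15.8 on N2 rapamycin, 16.12 to 16.78 on N2 control, 16.87 to 16.93 on N2 allantoin, 16.53 to 16.73 on eat-2 control and 16.9 to 16.91 on eat-2 rapamycin. Of 10 sperm markers measured of 12 listed, 9 were higher in mean on rapamycin in N2, and the summed level was 14.48 to 14.91 on N2 rapamycin, 12.08 to 14.18 on N2 control, 10.73 to 11.71 on N2 allantoin, 11.77 to 13.55 on eat-2 control and 10.63 to 10.99 on eat-2 rapamycin. The sperm marker spe-38 was in the dimmest 25% of all probe sets in every group but N2 rapamycin, and spe-11 was so on N2 allantoin and eat-2 rapamycin.

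Of 10 markers of the embryo, 8 were lower in mean on rapamycin in N2, and the summed level was 11.65 to 11.74 there against 12.07 to 12.65 on N2 control, with pes-10 and tbx-37 in the dimmest 25% on N2 rapamycin alone. Of 7 hypodermis markers measured of 8 listed, 5 were higher, and the summed level was 14.07 to 14.27 against 13.14 to 13.59. All 8 muscle markers and 6 of 8 neuron markers were higher in mean, and 4 of 7 intestine markers were. After adjustment, 2 sperm and 4 hypodermis markers were called higher (5.71% of all probe sets). Of the embryo and intestine markers, 1 each was called lower (3.67%), and no muscle or neuron marker was called. On N2 control 2 the median deviation was -0.39 for the cell cycle genes, -0.45 for the female germline markers and 1.59 for the sperm markers. The same medians were 0.27, 0.25 and -0.39 on N2 control 1 and 0.1, -0.03 and 1.19 on N2 control 3. They were 0.18, 0.17 and -0.67 on eat-2 control 1, -0.01, -0.11 and 0.8 on eat-2 control 2, and 0.17, 0.11 and -0.75 on eat-2 control 3. The part of these tissues in the differences of the cell cycle genes was not tested.

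**Figure D5:**
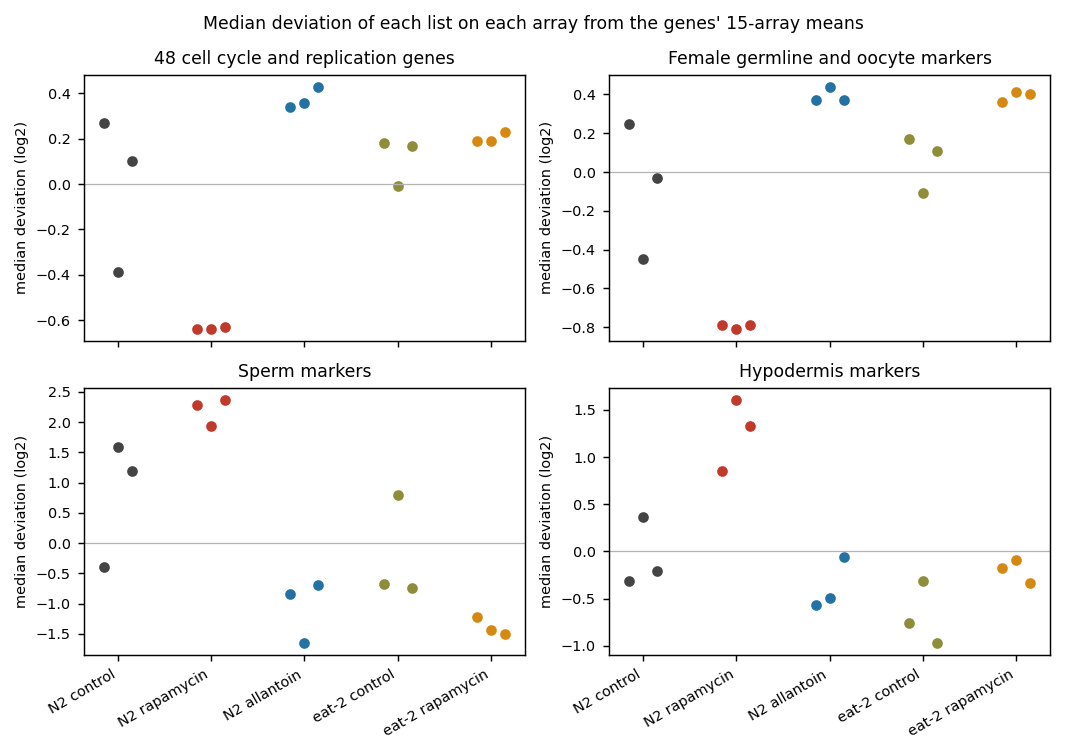
Median over a gene list of the difference in log2 signal from each gene's mean over 15 arrays (y axis; the scales differ), with 1 point per array, by group. Panels show the 48 cell cycle and replication genes and the markers of the female germline and oocyte, of sperm and of the hypodermis. The N2 rapamycin points lie lowest in the upper panels, at about -0.64 and from -0.81 to -0.79, and highest in the lower panels, at 1.94 to 2.36 for sperm and 0.85 to 1.6 for hypodermis.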

How the data were processed

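Total RNA of whole worms was hybridised to Affymetrix C. elegans arrays. The authors normalised the arrays with RMA in Affymetrix Expression Console (version not given in the sources used here), and the deposited table holds log2 values of 22625 probe sets on 15 arrays, from which 77 control probe sets were left out. Groups and replicate numbers came from the sample titles. Probe sets were named through the platform annotation (20766 with 1 symbol), and all 48 genes matched a RefSeq gene by symbol and Entrez identifier. Of the 48, 19 had further probe sets, 22 in all, and each of these 22 had the sign of the one used in N2 rapamycin against N2 control and against N2 allantoin. Calls against N2 control could differ between them. Further probe sets of lin-35, bub-3 and cyb-3 (-1.08 against -0.53 for the one used) passed adjustment where the one used did not. That of mcm-3 did not pass where the one used did. No member had a group mean in the dimmest 25% of probe sets (under 5.14 on the log2 scale).

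Each comparison was fitted with limma 3.58.1 (R 4.3.3; lmFit and eBayes, two-sided) on the 6 arrays of its pair, as the study compared conditions in pairs, and the strain by rapamycin test on 12 arrays. P-values were adjusted by Benjamini-Hochberg over 22548 probe sets and called at an adjusted p under 0.05, with the study's threshold beside them. The scripts were tested on simulated data. Values on every array are printed for up to 3 genes of each role by size of the difference between N2 rapamycin and N2 control, for each gene past the study's threshold in any comparison and for genes that go against their role, and up to 3 other division genes per comparison by p. The list of genes, the other lists and this rule were chosen with earlier results of these data known. Alternatives were 1 fit of all arrays, the replicate number as a block, leaving out dim probe sets, cyclic loess, median centring, the mean of a gene's probe sets, no moderation and leaving out each array. RMA makes the distributions of signals more alike across arrays, so a shift shared by most genes would not show in full. The median signal of an array still differed by group. It was 6.89 to 7.01 on N2 control, 7.03 to 7.05 on N2 rapamycin and 6.81 to 6.87 on N2 allantoin. On eat-2 control it was 6.88 to 6.9, and on eat-2 rapamycin 6.79 to 6.83. With 3 arrays a group, the number of arrays limits the precision. No sequence was used here.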

Additional observations from a re-analysis of the deposited data

Results flagged for a closer look

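The difference on rapamycin was not the same in eat-2 and N2 worms for 34 of the 48 cell cycle genes, by the test of the difference itself (limma, adjusted p under 0.05), which is what singled these results out. Of all probe sets, 12.1% were called positive and 12.4% negative in this test. The fit pooled the spread over its groups. The median SD of these genes was 0.39 in N2 controls and 0.086 to 0.13 in the other groups of the fit. The test also shares its N2 control and N2 rapamycin arrays with the comparison of rapamycin and control in N2. That comparison called 7 genes, and 0 to 40 with single arrays left out. With over 2-fold change as well, the strain difference was 1.65 for the licensing gene cdt-1, 1.18 for the helicase gene mcm-3, 1.42 for the G1 kinase gene cdk-4, 1.23 and 2.19 for the phosphatase genes cdc-25.2 and cdc-25.3, 1.31 for dpl-1, 1.04 for the Aurora B gene air-2 and 1.08 for fzy-1, all higher in eat-2. It was -2.2 for the CDK inhibitor gene cki-1 and -1.39 for cdc-25.4. With each array left out in turn, 17 to 39 genes were called, 17 without eat-2 rapamycin 1 or eat-2 rapamycin 3 and 39 without N2 control 2, where 6.86% to 19% of all probe sets were positive and 7.63% to 18.7% negative over the arrays left out. On the same arrays, 17 of 20 female germline and oocyte markers were called in the same test as higher in eat-2 and 8 of 10 sperm markers as lower, and their part in the cell cycle genes was not tested.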

How the results depend on the processing

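The direction of the median of the 48 genes was the same under every scaling, and changed only for eat-2 against N2 controls, from 0.11 to -0.1 without N2 control 2, in a range of -0.1 to 0.24 over single arrays left out. Counts against N2 controls were the least stable. Shares of all probe sets past the study's threshold were not computed under the alternatives. For rapamycin against control in N2, the 7 genes past adjustment became 41 in a single fit of all 15 arrays (17.7% of all probe sets lower and 16.8% higher), 13 without the dimmest 25% of probe sets (5.87% and 7.41%), 0 with the replicate number as a block (0.115% and 0.577%) or without moderation (0.00443% and 0.0399%), and 0 to 40 with single arrays left out (0% to 30.6% in either direction). The 4 genes past the study's threshold became 8 with median centring and 3 to 15 with single arrays left out, and cki-2 turned to 0.04 under cyclic loess. For allantoin against control, 0 became 6 in the single fit (4.82% of all probe sets higher), and leaving out single arrays gave 0 to 14 past adjustment (0% to 20.4% of all probe sets), a median of 0.16 to 0.52 and 0 to 3 past the study's threshold. For eat-2 against N2 controls single arrays gave 0 to 1 (0% to 1.97% of all probe sets). For rapamycin against allantoin the 29 genes past the study's threshold became 15 under cyclic loess, and the median of -1.05 became -0.76 under cyclic loess, -1.25 with median centring and -1.07 to -0.98 with single arrays left out. For rapamycin in eat-2, the 4 calls became 2 in the single fit (4.72% of all probe sets lower and 4.06% higher), with the replicate block (3.97% and 3.16%) or without moderation (1.64% and 2.47%). They became 7 with median centring (5.74% and 11.6%) and 2 to 4 with single arrays left out (4.45% to 14.3% in either direction). The median became 0.18 with median centring. Between strains on rapamycin, the 19 genes past the study's threshold became 9 under cyclic loess and 31 with median centring, and the median of 0.86 became 0.62, 1.09, 0.89 with the mean of all probe sets, and 0.83 to 0.89 with single arrays left out. In the test between strains the median of 0.77 became 0.58 under cyclic loess and 0.67 to 0.96 with single arrays left out, the 10 genes past the study's threshold became 22 with median centring and 6 to 24 with single arrays left out, and the 34 past adjustment became 17 to 39 (6.86% to 19% of all probe sets positive and 7.63% to 18.7% negative). Median centring moved the median of all probe sets from -0.02 to -0.12 for rapamycin against control in N2, from 0.05 to 0.15 for allantoin, from -0.07 to -0.27 for rapamycin against allantoin, from 0.1 to 0.33 between strains on rapamycin and from 0.04 to 0.23 in the test between strains, so that part of its changes is shared by all genes.

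Replicate numbers did not pair the samples throughout: of 30 pairs of same-numbered arrays, 9 had deviations that correlated above 0.1 (r from -0.35 to 0.45). The highest were N2 control with eat-2 control, at 0.45 for replicates 1 and 2 but -0.16 for replicate 3. A link between particular groups was therefore not excluded. The replicate block left the other counts within 1.5 times. The cause of these changes was not tested. Where an arm was left with fewer arrays, the spread of the rest was pooled. Array data give no counts, and the number of arrays limits the precision.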
